A study of Mus musculus with 6 samples.

Results

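The genes described here are 9 proteins of the excitatory postsynaptic density: the 4 PSD-95 family scaffolds Dlg1, Dlg2, Dlg3 and Dlg4, and 5 regulators of small GTPases or their scaffolds, Iqsec1, Iqsec2, Agap2, Kalrn and Cnksr2. They were chosen by symbol from the 54134 entries of each count file, and all 9 were present and passed the filter on low counts, as members of the 18705 genes tested. The tissue was mouse prefrontal cortex, taken at 6 to 8 weeks of age, in 3 groups of 2 libraries. The wild-type group (C57BL/6 x C3H) received vehicle, one group of Shank3 +/ΔC mice received vehicle, and the other group of Shank3 +/ΔC mice received GSK-LSD1, an inhibitor of the histone demethylase LSD1. Shank3 +/ΔC animals are heterozygous for a deletion at the C-terminal end of Shank3, a postsynaptic scaffold, so all animals given GSK-LSD1 carry the mutation. The mutant groups are called vehicle mutants (Shank3 vehicle in the plots) and GSK-LSD1 mutants here. The labels call the libraries of a group biological duplicates, and dose and sex are not given in them.

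PSD-95 family proteins are membrane-associated guanylate kinases (MAGUKs), which use PDZ domains to hold glutamate receptors, adhesion proteins and signalling enzymes under the synaptic membrane. The GTPase regulators act beneath them: exchange factors load small GTPases with GTP and GTPase-activating proteins switch them off. Arf GTPases control the traffic of receptors at the synapse, Rac shapes the actin of dendritic spines, and Ras drives kinase signalling.

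The libraries held 14133834 to 28646960 counted reads. The members were counted at between 1720 and 27825 reads per library. Shank3 lay at 156 ± 4.90 CPM (reads per 1000000 counted, scaled by the TMM factor, mean ± SD, n = 2 libraries) in wild type, 159.9 ± 20.1 in vehicle mutants and 154 ± 7.53 in GSK-LSD1 mutants, and this count over the whole gene takes in exons outside the deleted part, so it does not check the genotype. Kdm1a, which encodes LSD1, lay at 97.4 ± 6.22, 91.6 ± 7.67 and 92.5 ± 3.77 CPM. Excitatory neuron markers were present in every library, at a sum of 2854 to 3891 CPM over 8 genes. Fewer cells of a type and less RNA per cell cannot be told apart in such bulk samples.

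One promoter window each of 3 members is shown because they carry the main contrast of these data: Iqsec2 and Iqsec1, the members that passed a test, and Cnksr2, an X-linked gene like Iqsec2 that did not pass and whose window is about as rich in G and C. Each window runs from 250 bases before to 50 bases after a RefSeq start (GRCm38.p6), 5′ to 3′ on the gene's strand. Capitals mark GC boxes (GGGCGG, searched on both strands, overlaps merged).
Iqsec2, plus strand, chrX:152144018-152144317: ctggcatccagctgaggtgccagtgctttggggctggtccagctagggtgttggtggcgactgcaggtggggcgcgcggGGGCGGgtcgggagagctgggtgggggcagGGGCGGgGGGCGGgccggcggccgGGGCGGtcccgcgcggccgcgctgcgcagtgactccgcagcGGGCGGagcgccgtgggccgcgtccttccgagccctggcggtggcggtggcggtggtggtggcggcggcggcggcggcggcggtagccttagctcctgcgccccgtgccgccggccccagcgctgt
Iqsec1, minus strand, chr6:90810074-90810373: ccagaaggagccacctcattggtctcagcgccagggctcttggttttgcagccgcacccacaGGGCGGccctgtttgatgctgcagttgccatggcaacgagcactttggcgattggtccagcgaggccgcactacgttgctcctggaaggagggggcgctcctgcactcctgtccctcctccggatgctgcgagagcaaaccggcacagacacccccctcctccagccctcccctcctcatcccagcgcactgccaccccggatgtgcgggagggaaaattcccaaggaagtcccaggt
Cnksr2, minus strand, chrX:158043231-158043530: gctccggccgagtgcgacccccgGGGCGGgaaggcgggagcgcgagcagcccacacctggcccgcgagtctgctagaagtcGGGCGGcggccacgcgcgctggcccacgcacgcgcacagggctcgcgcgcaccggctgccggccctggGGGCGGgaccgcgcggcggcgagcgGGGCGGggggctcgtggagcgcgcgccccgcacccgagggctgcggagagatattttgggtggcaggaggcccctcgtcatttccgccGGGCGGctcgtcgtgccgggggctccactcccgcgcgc
The Iqsec2 window shown held 5 GC boxes at 79.7% G and C, the Iqsec1 window 1 at 64.0%, and the Cnksr2 window 5 at 79.3%. The contrast depends on the window: the other one held 0 at 53.0% in Iqsec2, 2 at 59.3% in Iqsec1 and 3 at 79.0% in Cnksr2. The Cnksr2 windows overlap, so boxes in the shared stretch count in both. All 9 members matched RefSeq, with 20 windows between them. GC boxes occurred in 10 of these 20 windows and in 35.7% of the 32851 mouse windows of the same length. The CRE core (TGACG) was in 4 of 20 against 20.8% of all windows, the EGR core (GTGGGCG) in 1 against 7.97%, and the E-box (CACGTG) in 2 against 7.15%, again on both strands. Iqsec1 and Iqsec2 had 2 windows each, and none of them held any of the last 3 sequences. A match describes letters in the window and is not evidence of a bound site.

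The exchange factors Iqsec2 and Iqsec1 were the only members that passed the test in any comparison, both as lower in the mutants than in wild type. The 4 PSD-95 family scaffolds, Agap2, Kalrn and Cnksr2 did not pass in any comparison. Iqsec2 was the 1 of 9 members called between vehicle mutants and wild type, where 1.27% of all tested genes were called (0.994% as lower and 0.278% as higher). Iqsec1, Iqsec2 and Dlg3 had an unadjusted p under 0.05 there, 3 of 9 against 14.0% of all tested genes. Iqsec2 and Iqsec1 were the 2 of 9 called between GSK-LSD1 and wild type, against 2.62% of all tested genes (1.99% lower and 0.636% higher), and the same 2 were those with an unadjusted p under 0.05 (15.7% of all tested genes). Between GSK-LSD1 and vehicle mutants 0 of 9 were called by edgeR, 0 had an unadjusted p under 0.05, and DESeq2 and limma-voom also called 0. Over all tested genes edgeR called 0.107% there (0.00535% lower and 0.102% higher), and 5.7% had an unadjusted p under 0.05. The calls in both comparisons with wild type share the wild-type libraries and are not independent.

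**Figure D1:**
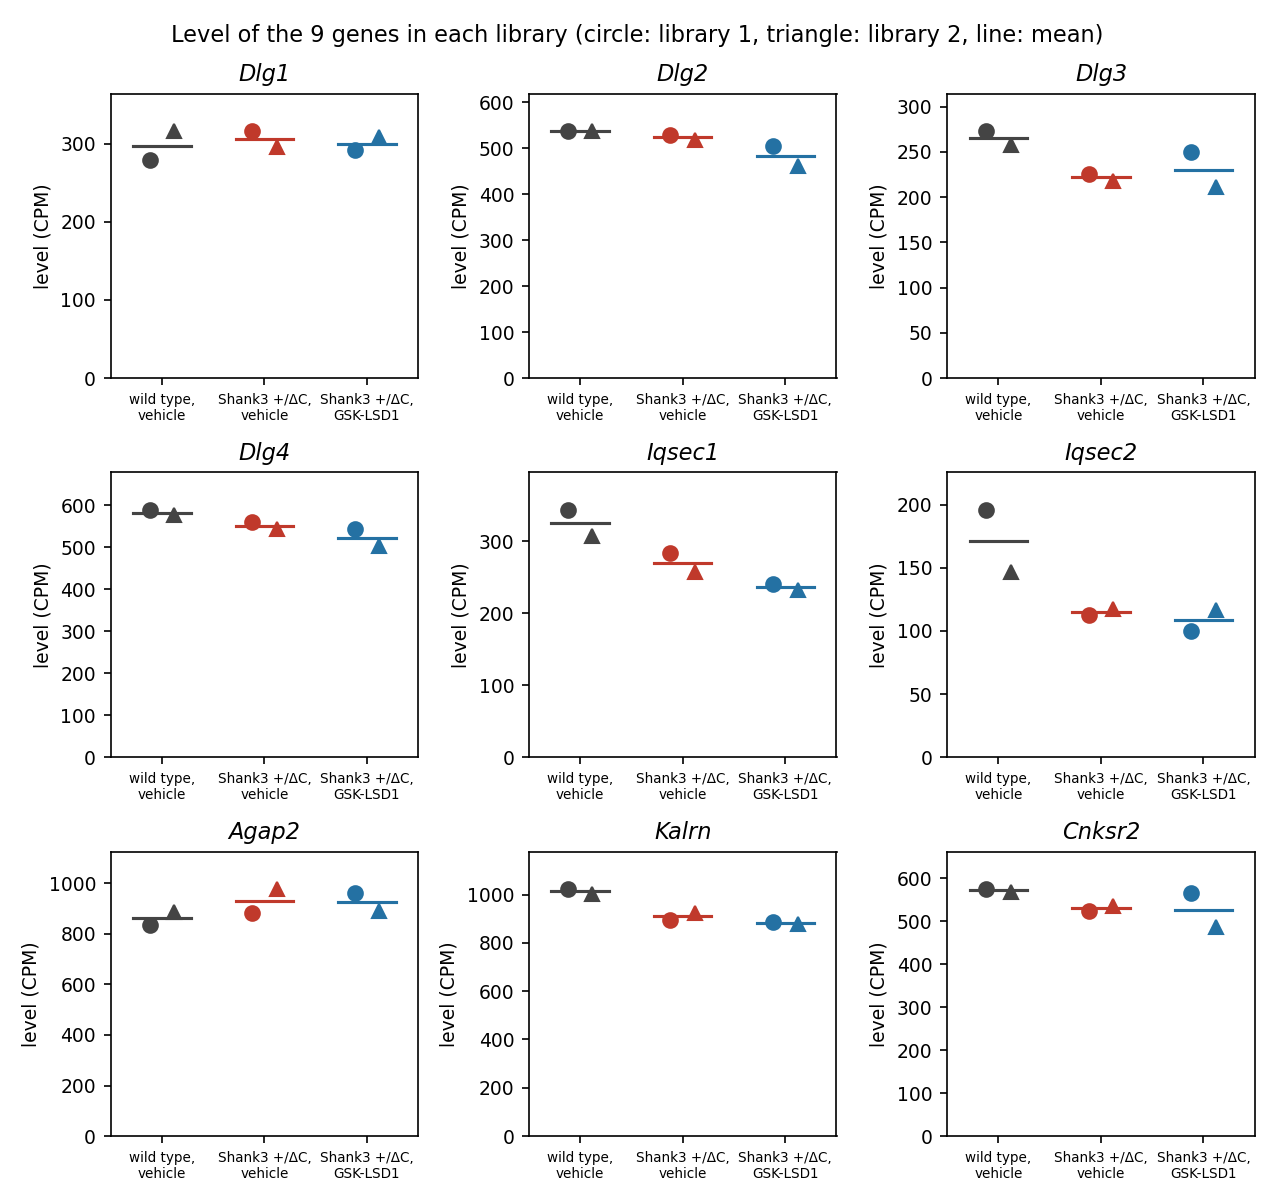
Level of each of the 9 genes in CPM (vertical axis, starting at 0) in each of the 6 libraries, by group. Circles are library 1, triangles library 2 and lines the mean of each group. Iqsec1 and Iqsec2 show both wild-type libraries above all 4 mutant libraries, as do Dlg2, Dlg3, Dlg4, Kalrn and Cnksr2. The share of all tested genes with this pattern was not computed. In single comparisons with wild type, 23.1% (vehicle mutants) and 22.4% (GSK-LSD1) of them were lower without overlap.

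Iqsec2 (chromosome X, 152144268 to 152225236, plus strand, GRCm38) encodes an exchange factor for Arf GTPases that binds PSD-95 at excitatory synapses, and its loss causes X-linked intellectual disability. It was counted at 196 and 147 CPM in wild-type libraries 1 and 2, at 113 and 118 in vehicle mutants, and at 100.02 and 117 in GSK-LSD1 mutants. All 4 mutant libraries were below both wild-type libraries. The wild-type pair differed by 49.3 CPM, more than the 29.3 CPM between wild-type library 2 and the nearest vehicle mutant library. The log2 fold change of vehicle mutants against wild type was -0.57 ± 0.13 (SE; 95% interval -0.85 to -0.30; edgeR quasi-likelihood test, Benjamini-Hochberg adjusted p = 0.0435). The level fell by 32.8%. For GSK-LSD1 against wild type it was -0.66 ± 0.13 (-0.94 to -0.38, adjusted p = 0.0154), and the level fell by 36.7%. Between GSK-LSD1 and vehicle mutants the libraries overlapped, and the log2 fold change was -0.09 with an interval of -0.36 to 0.19 (adjusted p = 0.996).

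The call of Iqsec2 in vehicle mutants was lost when any of 3 libraries was left out. Without wild-type library 1 its log2 fold change was -0.36 (adjusted p = 0.586), without vehicle mutant library 1 -0.55 (0.208) and without vehicle mutant library 2 -0.61 (0.190). Scaling by library size (-0.50, 0.117), a fit that was not robust (-0.57, 0.0723) and correction of length and GC content (-0.45, 0.0649) also ended the call. So did a model with the replicate number as a block (-0.57, 0.0568), and the call held in 8 of 15 alternatives. In GSK-LSD1 against wild type the call held in 12 of 15 and was lost without wild-type library 1 (-0.44, adjusted p = 0.268), without GSK-LSD1 library 1 (-0.56, 0.0520) and with scaling by library size (-0.58, 0.0560). The sign was negative against wild type in all 15 alternatives of each comparison.

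Iqsec1 (chromosome 6, 90656088 to 90988685, minus strand), the paralog of Iqsec2 and an exchange factor for Arf6, was counted at 344 and 308 CPM in wild type, 283 and 257 in vehicle mutants, and 240.2 and 233 in GSK-LSD1 mutants. The 3 groups did not overlap, with wild type highest and GSK-LSD1 lowest. GSK-LSD1 against wild type gave a log2 fold change of -0.46 ± 0.11 (-0.69 to -0.23, adjusted p = 0.0290), and the level fell by 27.4%. vehicle mutants against wild type, at -0.27 ± 0.11 (-0.50 to -0.04), had an unadjusted p of 0.0227 and did not pass after adjustment (adjusted p = 0.255). The step from vehicle mutants to GSK-LSD1 mutants was -0.19 ± 0.11 (-0.42 to 0.03, adjusted p = 0.935). The call against wild type was lost without wild-type library 1 (-0.38, adjusted p = 0.391), without GSK-LSD1 library 2 (-0.44, 0.119), with exonic length and GC content corrected (-0.35, 0.0990), with scaling by library size (-0.38, 0.0613) and with only the 4 libraries compared (-0.46, 0.0511), and held in 10 of 15 alternatives. An antisense gene, Gm44123, overlaps 574 exonic bases of Iqsec1 and was listed at 0 reads in all 6 libraries.

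**Figure D2:**
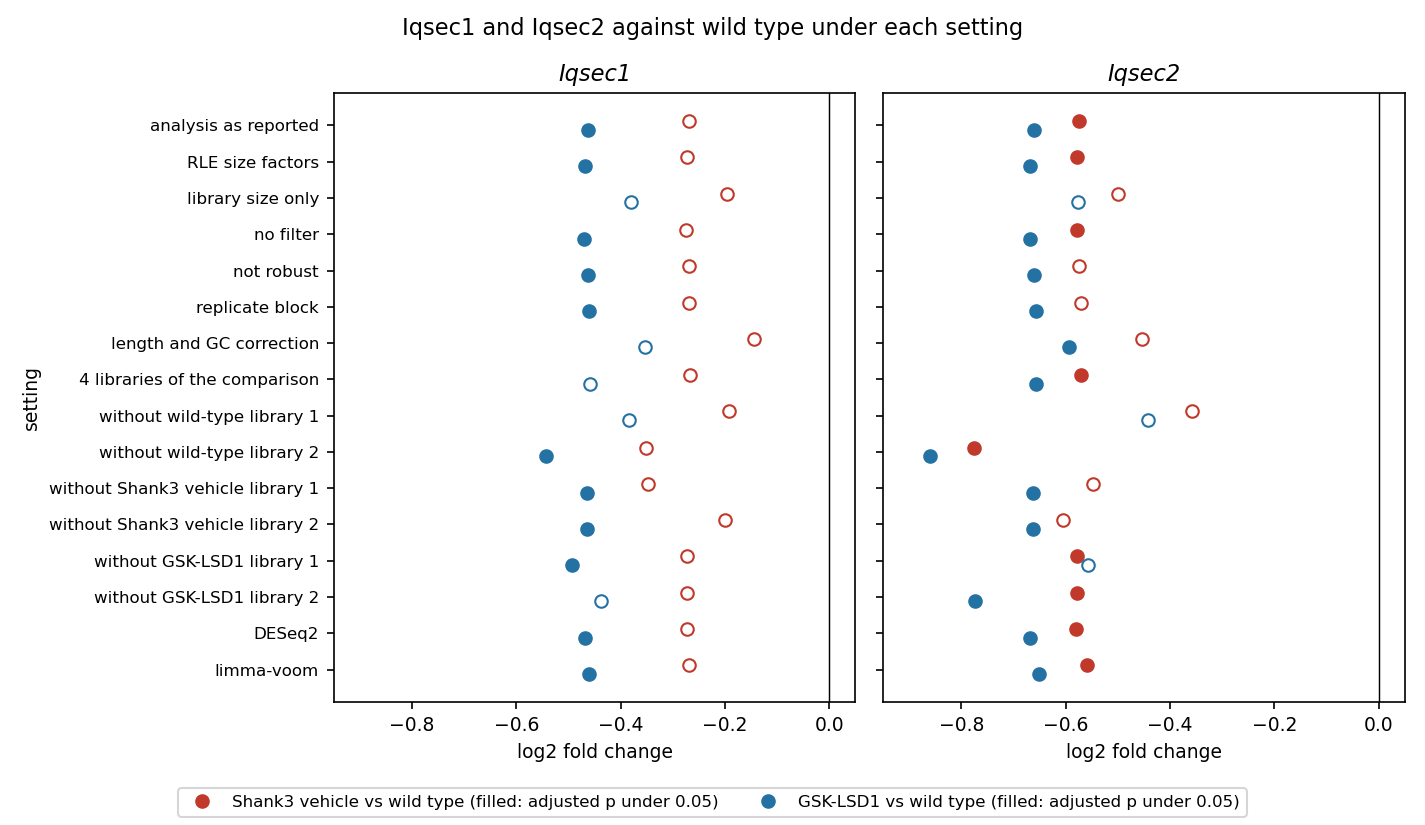
log2 fold change of Iqsec1 (left) and Iqsec2 (right) against wild type, horizontal axis, under the reported analysis and 15 alternatives (rows). Red is vehicle mutants and blue GSK-LSD1, filled where the adjusted p is under 0.05; every point lies left of 0, and Iqsec2 in vehicle mutants ranges from -0.77 to -0.36.

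Among the scaffolds, Dlg4 (chromosome 11, 70016942 to 70047522, plus strand), which encodes PSD-95, was counted at 589.9 and 576 CPM in wild type, 559.9 and 544 in vehicle mutants, and 544 and 503 in GSK-LSD1 mutants. Both mutant groups lay below wild type, and the 2 mutant groups overlapped at 544 CPM. Its log2 fold change was -0.08 in vehicle mutants against wild type (-0.30 to 0.15, adjusted p = 0.824) and -0.16 in GSK-LSD1 against wild type (-0.38 to 0.07, adjusted p = 0.537). In vehicle mutants the sign turned to 0.03 with length and GC content corrected.

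Dlg3 (chromosome X, 100767722 to 100818410, plus strand) encodes SAP102, a scaffold prominent in young synapses. Its levels were 273 and 257 CPM in wild type, 225 and 218 in vehicle mutants, and 249 and 211 in GSK-LSD1 mutants. Both mutant groups were below wild type. The log2 fold change of vehicle mutants was -0.26 ± 0.11 (-0.49 to -0.03), with an unadjusted p of 0.0306 and an adjusted p of 0.288, and that of GSK-LSD1 against wild type was -0.20 ± 0.11 (-0.43 to 0.03, adjusted p = 0.398).

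Dlg2 (chromosome 7, 90476672 to 92449247, plus strand), which encodes PSD-93, stood at 538 CPM in both wild-type libraries, at 529.6 and 519 in vehicle mutants and at 506 and 461 in GSK-LSD1 mutants. The 3 groups did not overlap, but the log2 fold changes were small: -0.04 (-0.26 to 0.19) in vehicle mutants and -0.15 (-0.38 to 0.07) in GSK-LSD1, each against wild type, with adjusted p = 0.928 and 0.541. The first of these turned to 0.03 with scaling by library size and to 0.07 with length and GC content corrected. Gm45159 and Gm45131 share 75 and 150 exonic bases with Dlg2 on the same strand. Dlg1 (chromosome 16, 31663443 to 31875129, plus strand), which encodes SAP97, a carrier of AMPA receptors, lay at 278 and 316 CPM in wild type, 316 and 296 in vehicle mutants, and 292 and 308 in GSK-LSD1 mutants. All 3 groups overlapped, and the log2 fold changes ran from -0.03 to 0.04.

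Per kilobase of exonic length the scaffolds stood at similar levels. That length takes in every annotated exon of a gene, 5.84 kb for Dlg3 and 13.3 kb for Dlg4. The lengths of the expressed transcripts were not measured. In mean CPM Dlg4 (553) stood above Dlg3 (239), so the shares given next depend on the annotation. Dlg4 took 28.9% to 29.8% of the summed RPKM (CPM divided by exonic length in kilobases) of the 4 genes across the 6 libraries, Dlg3 27.0% to 31.1%, Dlg2 21.6% to 23.1% and Dlg1 17.2% to 21.9%. The ranges of Dlg4 and Dlg3 overlapped, and Dlg2 lay below both in every library.

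Of the remaining regulators, Kalrn (chromosome 16, 33969073 to 34573532, minus strand) encodes kalirin, a Rac exchange factor of dendritic spines. Its levels were 1024 and 1004 CPM in wild type, 896 and 923 in vehicle mutants, and 885 and 877 in GSK-LSD1 mutants. The groups did not overlap, and the gap of 80.8 CPM between wild type and the nearest vehicle mutant library exceeded the range inside either group (20.3 and 27.4 CPM). Dlg3, Dlg4 and Cnksr2 also had a gap wider than either range in this comparison (31.6, 16.15 and 33.5 CPM). The share of all tested genes with such a gap was not computed. The log2 fold changes of -0.16 (-0.39 to 0.07, adjusted p = 0.573) and -0.20 (-0.43 to 0.03, adjusted p = 0.391) against wild type did not pass, and with length and GC content corrected they were -0.0041 and -0.03.

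Cnksr2 (chromosome X, 157821436 to 158043294, minus strand), a scaffold that links Ras signalling to the postsynaptic density, was counted at 576 and 569 CPM in wild type, 525 and 535 in vehicle mutants, and 565 and 487 in GSK-LSD1 mutants. Mutant libraries were below wild type, by 3.88 CPM at the nearest pair in GSK-LSD1 mutants. Log2 fold changes were -0.11 (-0.34 to 0.12, adjusted p = 0.744) and -0.12 (-0.35 to 0.11, adjusted p = 0.669) against wild type in vehicle mutants and GSK-LSD1. Agap2 (chromosome 10, 127075284 to 127093169, plus strand), a GTPase-activating protein for Arf that also has a GTPase domain of its own, was at 837 and 888 CPM in wild type, 882 and 979 in vehicle mutants, and 961 and 892 in GSK-LSD1 mutants. It was the 1 member whose log2 fold change reached 0.10 in the mutants, at 0.11 (-0.13 to 0.35, adjusted p = 0.752) and 0.10 (-0.13 to 0.34, adjusted p = 0.732) against wild type.

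In RPKM over all libraries, Agap2 had the highest values of the members at 141 to 165, followed by Cnksr2 at 52.6 to 62.1. The ranges of Dlg4 (37.9 to 44.5), Dlg3 (36.1 to 46.8) and Kalrn (36.5 to 42.6) overlapped, and below them those of Dlg2 (28.3 to 33.1) and Dlg1 (25.9 to 29.5) did too. Iqsec1 (20.04 to 29.6) and Iqsec2 (14.3 to 28.1) had the lowest mean RPKM and were the most variable. Their highest library was 1.48 and 1.96 times the lowest, against 1.14 to 1.29 times for the other members. This order rests on lengths that take in every annotated exon of a gene, 5.94 kb for Agap2 and 24.05 kb for Kalrn. The lengths of the expressed transcripts were not measured. By mean CPM, Kalrn (935) lay above Agap2 (907), and Dlg3 (239) lay below Iqsec1 (277).

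**Figure D3:**
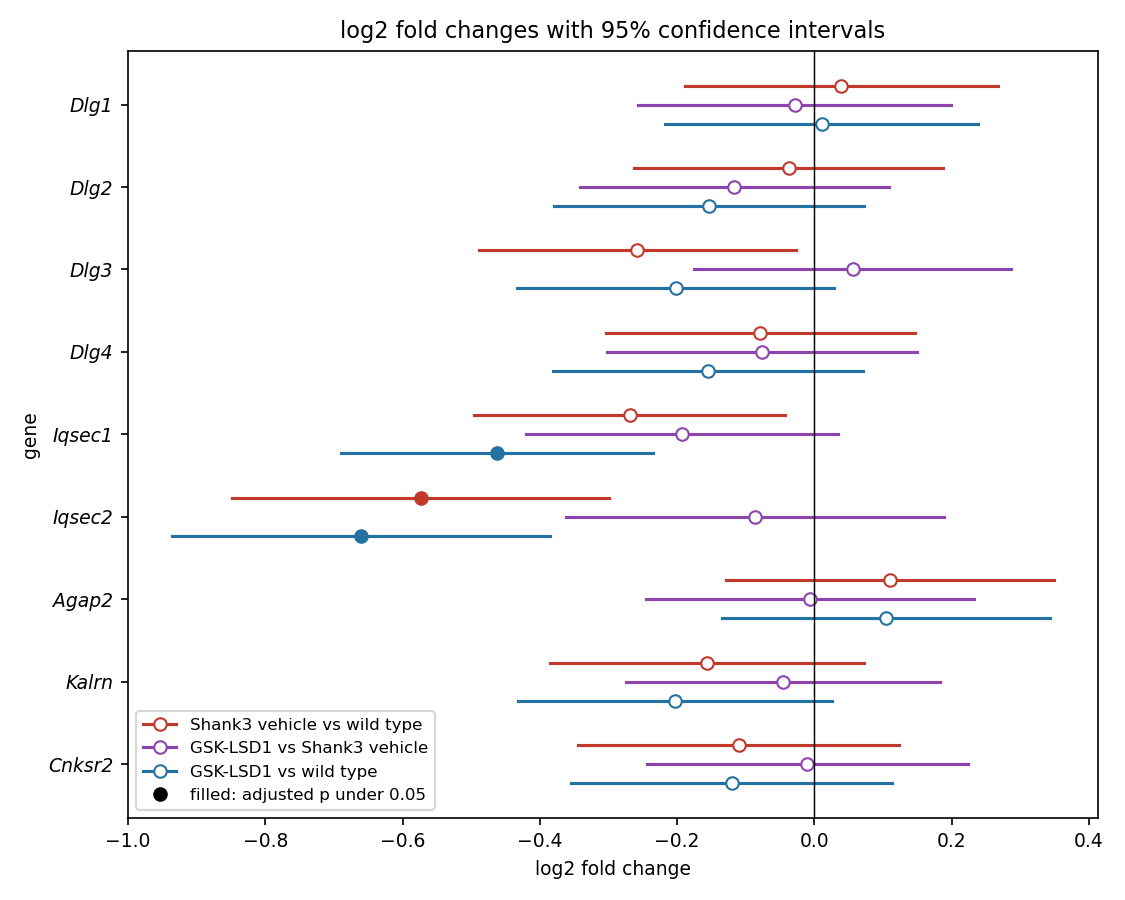
log2 fold change (horizontal axis) of each of the 9 genes in the 3 comparisons, with 95% confidence intervals from edgeR's fit, filled where the adjusted p is under 0.05. Iqsec2 in both comparisons with wild type and Iqsec1 in GSK-LSD1 against wild type are filled; the interval of Agap2 crosses 0 in each comparison.

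As a group, 7 of 9 members had a negative log2 fold change in vehicle mutants against wild type, beside 47.7% of all tested genes, or 6 of 9 with scaling by library size alone and 5 of 9 with length and GC content corrected. The same 7 had libraries that did not overlap, all lower, where 46.2% of all tested genes did not overlap and 23.1% were lower. In GSK-LSD1 against wild type 7 of 9 were negative (47.4% of all tested genes), also under those 2 alternatives. Libraries did not overlap for 8 of 9 (45.8% of all tested genes), the same 7 lower (22.4%) and Agap2 higher (23.5%). The medians were -0.11 and -0.16, against 0.02 and 0.02 over all tested genes, and they were -0.038 and -0.074 with scaling by library size and -0.0041 and -0.045 with length and GC content corrected. All 9 members were longer than the median tested gene, at 5.84 to 24.1 kb of exonic sequence against 3.79 kb. Their GC content, taken from the longest annotated transcript, lay on both sides of the tested median of 49.15%. It ran from 43.7% in Cnksr2 to 59.6% in Iqsec2 and 63.0% in Agap2. Between GSK-LSD1 and vehicle mutants 8 of 9 were negative (50.1% of all tested genes), with a median of -0.05 (-0.073 with the correction), or 7 of 9 with scaling by library size and 6 of 9 with the correction. There Dlg2, Iqsec1 and Kalrn did not overlap, 3 of 9 and all lower, where 33.6% of all tested genes did not overlap, 16.6% lower and 17.0% higher.

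Cell type markers differed in the same comparisons. Of 8 excitatory neuron markers 1 fell in vehicle mutants and 2 in GSK-LSD1 by edgeR, each against wild type, and 0 rose. DESeq2 called 2 lower and 0 higher in vehicle mutants, and 3 lower and 1 higher in GSK-LSD1. By limma-voom it was 1 lower and 3 lower, with 0 higher. The log2 fold change was positive for 2 of the 8 in vehicle mutants and 1 in GSK-LSD1. The summed level of the 8 markers was 3891 and 3704 CPM in wild type, 3198 and 3232 in vehicle mutants, and 3308 and 2854 in GSK-LSD1 mutants. For astrocytes 2 and 4 of 8 markers rose against wild type, with sums of 3938 and 4873, 5399 and 5572, and 5375 and 5441 CPM in that order of groups. Of 9 oligodendrocyte markers 0 passed edgeR's test in either comparison (1 and 0 by DESeq2, 0 and 0 by limma-voom, and 1 and 0 with edgeR's p under 0.05 before adjustment), while the sums were 2394 and 2220 CPM in wild type, 5615 and 5650 in vehicle mutants, and 2260 and 5288 in GSK-LSD1 mutants. GSK-LSD1 library 1, whose oligodendrocyte sum was at the wild-type level, had an Iqsec2 level of 100.02 CPM. Beside it stood 113 and 118 CPM in vehicle mutants and 117 in GSK-LSD1 library 2. Dlg1 was also lower in GSK-LSD1 library 1 than in library 2 (292 against 308 CPM). All other members were higher in library 1, among them Cnksr2 (565 against 487), Dlg3 (249.5 against 211), Dlg4 (544 against 503) and Dlg2 (506 against 461). Wild type stood at 576 and 569 CPM for Cnksr2 and at 273 and 257 for Dlg3. The astrocyte sum of library 1 (5375 CPM) was above both wild-type sums. These values rest on 1 library, and a link between the marker sums and any member was not tested. Inhibitory neuron sums ran from 804 to 937 CPM. Oligodendrocyte precursor sums were 176 and 197 CPM in wild type, 245 and 294 in vehicle mutants, and 230 and 286 in GSK-LSD1 mutants. In the same order microglial sums were 249.5 and 284, 299 and 346, and 321 and 300, and endothelial sums 153 and 170, 182 and 212, and 174 and 158. All 6 precursor markers had a positive log2 fold change in both comparisons with wild type, where DESeq2 called 2 and 2 higher. Of these lists 1 of 6 precursor, 1 of 8 microglial and 1 of 7 endothelial markers rose in vehicle mutants against wild type, and no marker was at 0 in any library.

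Set against the summed excitatory markers, a ratio chosen after these values were seen, most members no longer lay below wild type. Iqsec2 stood at 50.4 and 39.7 CPM per 1000 CPM of markers in wild type, 35.2 and 36.4 in vehicle mutants, and 30.2 and 41.0 in GSK-LSD1 mutants, so that the vehicle mutant libraries were below wild type and the treated ones overlapped it. Iqsec1 stood at 88.4 and 83.1, 88.6 and 79.6, and 72.6 and 81.5, with only the treated libraries below wild type. Dlg4 was higher in the mutants on this ratio, at 152 and 156 in wild type, 175 and 168 in vehicle mutants, and 164 and 176 in GSK-LSD1 mutants. In vehicle mutants 6 of 9 members were above wild type by this measure and 1 below. The marker sum was itself lower in every mutant library than in wild type, so a gene at an unchanged level rises on this ratio. The share of all tested genes above or below wild type by this measure was not computed. Camk2a alone supplied 34.7% to 45.2% of the marker sum. The part of cell composition in the levels of Iqsec1 and Iqsec2 was not tested.

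The proteins that bind PSD-95 family scaffolds included several lower genes. Of 26 binding partners 4 fell and 0 rose by edgeR in vehicle mutants against wild type, with a list median of -0.16. DESeq2 called 8 lower and 1 higher there, and limma-voom 4 lower and 0 higher. They included the neuronal nitric oxide synthase Nos1 (-0.69 ± 0.13, adjusted p = 0.0247) and the AMPA receptor auxiliary subunits Cacng8 (-0.46 ± 0.11, 0.0453) and Cacng3 (-0.49 ± 0.12, 0.0470). In GSK-LSD1 against wild type 8 of 26 fell and 0 rose by edgeR (11 and 0 by DESeq2, 8 and 0 by limma-voom, median -0.27), among them Nos1 (-0.63 ± 0.13), the potassium channel Kcna2 (-0.56 ± 0.11) and the scaffold Dlgap2 (-0.53 ± 0.10). The call rate over all 140 tested genes of the 6 related lists was 6.43% and 15.0% in these comparisons, beside 1.27% and 2.62% of all tested genes. The lists were chosen with earlier results of these data known, so the difference is not a test of them. With the length and GC correction 1 of the 140 rose and 2 fell in vehicle mutants, and 4 rose and 13 fell in GSK-LSD1, each against wild type.

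Among 13 other MAGUK scaffolds 1 rose in vehicle mutants and 2 in GSK-LSD1 mutants by edgeR, each against wild type (1 and 2 by DESeq2, 0 and 2 by limma-voom), and 0 fell by any of these tools, with medians of -0.06 and -0.09 in vehicle and GSK-LSD1 mutants. The polarity scaffold Mpp5 was one of the 2 in GSK-LSD1 mutants (55.0 ± 9.19 to 83.2 ± 2.27 CPM, 0.59 ± 0.12, adjusted p = 0.0147). Dlg5 did not pass in vehicle mutants (-0.53 ± 0.15, adjusted p = 0.103). Palmitate anchors PSD-95, and 12 enzymes that attach or remove palmitate were listed. Which of them act on PSD-95 itself was not examined. Of these 12, 0 passed the test of edgeR, DESeq2 or limma-voom in vehicle mutants (2 at an unadjusted p under 0.05 in edgeR, median -0.02). The thioesterase Ppt1 was at 0.34 ± 0.11 (adjusted p = 0.144) there and rose in GSK-LSD1 against wild type (0.44 ± 0.11, 0.0401), while the acyltransferase Zdhhc8 was at -0.32 ± 0.13 (0.242) and -0.36 ± 0.13 (0.156).

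In the list of 32 Arf GTPases and regulators, to which Iqsec1, Iqsec2 and Agap2 are related, 2 fell in vehicle mutants against wild type (median -0.08). These were the GTPase-activating protein Smap2 (144 ± 17.4 to 98.2 ± 7.70 CPM, -0.55 ± 0.11, adjusted p = 0.0302) and Arfgef3, of the large exchange factor family (-0.52 ± 0.11, 0.0302). Both also fell in GSK-LSD1 against wild type, with the GTPase-activating protein Asap1 (-0.52 ± 0.11) and the exchange factor Arfgef2 (-0.40 ± 0.10), making 4 of 32 (median -0.11). Of 26 tested Ras and Rap regulators and Raf scaffolds, the group of Cnksr2, 1 fell and 0 rose by edgeR in vehicle mutants (median -0.17). DESeq2 called 5 lower and 1 higher there, and limma-voom 1 lower and 1 higher. Rapgef4 stood at 0.52 ± 0.13 (adjusted p = 0.0552 in edgeR). In GSK-LSD1 against wild type 2 fell and 0 rose by edgeR (7 and 0 by DESeq2, 3 and 0 by limma-voom, median -0.13), and Ksr2, a scaffold for Raf, was one of them (-0.54 ± 0.11).

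In GSK-LSD1 against vehicle mutants 0 of the 140 genes passed edgeR's test or that of DESeq2 or limma-voom, and 10 had an unadjusted p under 0.05 in edgeR. List medians ran from -0.09 to 0.04. The smallest p-values of 5 of the lists belonged to Rapgef4 (-0.37 ± 0.13, adjusted p = 0.685), Lypla1 (-0.47 ± 0.19, 0.799), Cacng2 (-0.27 ± 0.11, 0.812), Agap1 (-0.24 ± 0.10, 0.824) and Mpp5 (0.27 ± 0.12, 0.834). Without wild-type library 1, 0 of these 140 genes passed in either comparison with wild type, and without either vehicle mutant library 0 passed in vehicle mutants against wild type. Without GSK-LSD1 library 2, 0 rose and 7 fell in GSK-LSD1 against wild type, where 3 rose and 18 fell with all libraries.

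The profiles of members over the 6 libraries were compared by the root mean square distance of centred log2 CPM. Dlg2 and Dlg4 were the closest pair at 0.0228, followed by Dlg4 and Cnksr2 at 0.0438, and Iqsec1 and Iqsec2 lay 0.173 apart. Among 10016 other genes with a mean of at least 10 CPM, the nearest to Iqsec2 were Adam11, a neuronal member of the ADAM family that is also among the listed binding partners (0.0465), the RNA interference protein Ago2 (0.0482), Prrc2b (0.0514) and Gatad2b, a NuRD complex subunit (0.0563), where the median gene was 0.331 away. Their log2 fold changes of vehicle mutants against wild type were -0.49, -0.56, -0.54 and -0.56, a direction that the choice by likeness sets. Nearest to Dlg4 were Clasp2, Kat7, Foxo3 and Srsf9, at 0.0167 to 0.0210, against a median of 0.137. Distances are smaller for genes whose level varies little, and all profiles share the same 6 libraries.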

How the data were processed

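Strand-specific libraries of ribosome-depleted total RNA were sequenced, per the labels' protocols. The files hold raw counts of reads for each gene symbol, made by the authors with cutadapt, TopHat2, SAMtools and featureCounts on mm10 (GRCm38), per the submitters' processing notes, which also name edgeR; tool versions, annotation release and strandedness of counting were not given in the sources used here. The 2 libraries of each group differed by more than counting noise, with a chi-square of 9.42 to 12.6 for each degree of freedom.

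From these counts, R 4.3.3 with edgeR 4.0.16 (filterByExpr, TMM, robust quasi-likelihood, 1 model over 6 libraries with 3 residual degrees of freedom) gave log2 fold changes, two-sided tests and Benjamini-Hochberg adjustment over 18705 genes, with 0.05 as the threshold. SEs are the size of the fold change divided by the root of the F statistic. The procedure was tested on simulated data. GENCODE release M21 (GRCm38) matched 98.7% of tested genes and gave positions and exonic length. A few listed genes and 1 list are not reported here. Alternatives included DESeq2 1.42.0 and limma 3.58.1 (voom). The members and the gene lists were chosen with earlier results of these data known. Named were all members, the 4 nearest profiles to Dlg4 and Iqsec2, and from each list up to 4 called genes per comparison by p, or the 2 with the smallest p where fewer than 2 were called.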

Additional observations from a re-analysis of the deposited data

How the results depend on the processing

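The 15 alternatives were RLE or no scaling factors, no filter, a fit that was not robust, DESeq2, limma-voom, only the 4 libraries compared, the replicate block, a length and GC correction, and each of 6 libraries left out. Of the member fold changes recomputed, 372 kept their direction and their side of the threshold, 15 lost a call and 18 changed sign; all 15 lost calls were of Iqsec1 or Iqsec2, and each sign change was in a comparison where that member had not passed. The cause was not tested. With 2 libraries a group, each p-value borrows its spread from all genes.

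Members called in vehicle mutants against wild type fell from 1 to 0 with scaling by library size, without the robust option, with the replicate block and with the length and GC correction, and were 0 to 1 with a library left out. In GSK-LSD1 against wild type the 2 calls became 0 with library size scaling and 1 with the length and GC correction or with only the 4 libraries, and 0 to 2 with a library left out. The deviations of same-numbered libraries from their group means correlated across 13960 genes at r = -0.05, -0.06 and 0.08 between groups. No deviation shared by number thus ran broadly across these genes. A shared litter or day that touched few genes would not show in this check, and the labels do not say what the numbers mark. The replicate block gave Iqsec2 an adjusted p of 0.0568 in vehicle mutants against wild type and changed no other member call.

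Of all tested genes, 238 were called in vehicle mutants against wild type; this became 35 with library size scaling, 807 with no filter, 11 without the robust option, 125 with the length and GC correction, 524 with only the 4 libraries, 590 with DESeq2 and 6 to 656 with a library left out (233 with the replicate block). The 20 calls in GSK-LSD1 against vehicle mutants became 106 with no filter, 35 with DESeq2 and 10 to 83 with a library left out. The 491 calls in GSK-LSD1 against wild type became 254 with library size scaling, 962 with no filter, 793 with DESeq2 and 6 to 637 with a library left out. The calls of vehicle mutants against wild type were 52 higher and 186 lower, but 15 and 20 with library size scaling and 47 and 78 with the length and GC correction; those of GSK-LSD1 against wild type were 119 and 372, but 111 and 143 with library size scaling. Of the 140 list genes, 1 higher and 8 lower calls in vehicle mutants against wild type became 0 and 0 with library size scaling or without the robust option, 1 and 2 with the length and GC correction, 2 and 11 with only the 4 libraries, 4 and 17 with no filter and 4 and 21 with DESeq2. In GSK-LSD1 against wild type 3 and 18 became 3 and 6 with library size scaling, 2 and 12 without the robust option or with only the 4 libraries, and 4 and 28 with DESeq2.

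Sign changes, each in a comparison where the member was not called, were Dlg2 in vehicle mutants against wild type (0.035 with library size scaling, 0.071 with the correction), Dlg4 there (0.028 with the correction), and in GSK-LSD1 against vehicle mutants Dlg1 (0.0079 with the correction), Cnksr2 (0.026 with the correction) and Agap2 (0.0015 with library size scaling). With libraries left out, Dlg1 ranged from -0.056 to 0.13 in vehicle mutants and from -0.082 to 0.10 in GSK-LSD1, each against wild type. In GSK-LSD1 against vehicle mutants the ranges were -0.076 to 0.023 for Dlg1, -0.073 to 0.18 for Dlg3, -0.20 to 0.021 for Iqsec2, -0.075 to 0.069 for Agap2 and -0.12 to 0.10 for Cnksr2.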

Other observations

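Ratios between members within a library, taken per kilobase of exonic length, show how Iqsec1 and Iqsec2 moved beside the scaffold Dlg4. The ratio of Iqsec2 to Dlg4 was 0.632 and 0.484 in wild type, 0.382 and 0.411 in vehicle mutants, and 0.349 and 0.442 in GSK-LSD1 mutants, and all 4 mutant libraries were below both wild-type ones. For Iqsec1 to Dlg4 it was 0.666 and 0.610, 0.578 and 0.540, and 0.504 and 0.528 in the same order, again without overlap between mutants and wild type. Iqsec2 to Iqsec1 was 0.949 and 0.794 in wild type, 0.661 and 0.761 in vehicle mutants, and 0.692 and 0.837 in GSK-LSD1 mutants, where the treated libraries overlapped wild type. Dlg4 itself differed little from wild type (log2 fold change -0.08 in vehicle mutants and -0.16 in GSK-LSD1). The ratios to Dlg4 thus largely repeat the levels of Iqsec1 and Iqsec2. The share of all tested genes whose ratio to Dlg4 separates mutants from wild type was not computed. These ratios were chosen after the levels were seen, and they were not tested.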
